A study of Mus musculus with 2 samples.

Results

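The 9 genes Itgae, Itgb7, Cd69, S1pr1, Klf2, Ccr10, Ccr6, Cx3cr1 and Cxcr6 hold lymphocytes in skin, let them leave it or guide them through it. They were chosen by name and are 9 of the 31053 genes counted. They were followed in single live CD45+EpCAM-MHC-II- cells, sorted from trypsin-digested ear epidermis of wild-type FVB/NJ female mice aged 8 weeks. One library came from skin injected intradermally with isotype control antibody and the other from skin injected with antibody to Skint1, a keratinocyte protein that dendritic epidermal T cells (DETCs) depend on, each taken after 7 days. With 1 library and 1 mouse per treatment, treatment, mouse and library cannot be told apart. Wherever a pair of values is given without further label, the isotype library comes first.

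Lymphocytes that stay in epithelium use an anchor and a block on exit. The integrin chains CD103 (Itgae) and beta7 (Itgb7) pair and bind E-cadherin on keratinocytes. CD69 takes the sphingosine-1-phosphate receptor S1PR1 off the cell surface, and the transcription factor KLF2 drives S1pr1 transcription, so cells with little KLF2 and S1PR1 are not drawn into lymph. Chemokine receptors place the cells: CCR10 binds CCL27 from keratinocytes, CCR6 binds CCL20, CX3CR1 binds CX3CL1 and CXCR6 binds CXCL16. DETCs are γδ T cells that settle in mouse epidermis before birth and renew themselves there.

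The identifiers of all 9 genes matched the GENCODE vM21 annotation of GRCm38, where each is protein coding. Itgae lies on chromosome 11 (73090583 to 73147446), Itgb7 on chromosome 15 (102215995 to 102231944), Cd69 on chromosome 6 (129267325 to 129275436), S1pr1 on chromosome 3 (115710433 to 115715072) and Klf2 on chromosome 8 (72319033 to 72321656). Ccr10 lies on chromosome 11 (101172997 to 101175443), Ccr6 on chromosome 17 (8236043 to 8257141), and Cx3cr1 (119901616 to 120069879) and Cxcr6 (123806475 to 123811760) on chromosome 9. RefSeq upstream sequence was matched for 5 of the 9 genes: Itgb7, Klf2, Ccr6 (with 2 start sites), Cx3cr1 and Cxcr6.

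Of these, the 250 bases before the start are printed for Klf2 and Ccr6, which differed most between αβ T cells and DETCs, and for Cxcr6, which was lower with Skint1 antibody in both T cell classes. The windows are from RefSeq on GRCm38.p6, plus strand, 5′ to 3′: chr8:72318812-72319061 for Klf2, chr17:8235793-8236042 for the first start of Ccr6 and chr9:123806227-123806476 for Cxcr6. Capitals mark the KLF core (CACCC) in Klf2, the ROR core (AGGTCA) in Ccr6 and the RUNX core (TGTGGT) in Cxcr6, each searched on both strands and here read as the reverse complement. The ROR core is only part of a ROR element, and its flanking bases were not searched.
Klf2: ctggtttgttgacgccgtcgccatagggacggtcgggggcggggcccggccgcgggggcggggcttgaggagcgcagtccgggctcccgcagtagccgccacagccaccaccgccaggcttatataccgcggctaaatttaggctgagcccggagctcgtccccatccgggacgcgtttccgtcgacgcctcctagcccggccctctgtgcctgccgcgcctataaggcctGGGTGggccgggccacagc
Ccr6: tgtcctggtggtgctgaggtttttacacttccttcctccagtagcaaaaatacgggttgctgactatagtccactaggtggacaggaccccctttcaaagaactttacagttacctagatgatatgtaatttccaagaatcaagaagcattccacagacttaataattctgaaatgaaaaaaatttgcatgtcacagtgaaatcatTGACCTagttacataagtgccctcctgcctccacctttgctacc
Cxcr6: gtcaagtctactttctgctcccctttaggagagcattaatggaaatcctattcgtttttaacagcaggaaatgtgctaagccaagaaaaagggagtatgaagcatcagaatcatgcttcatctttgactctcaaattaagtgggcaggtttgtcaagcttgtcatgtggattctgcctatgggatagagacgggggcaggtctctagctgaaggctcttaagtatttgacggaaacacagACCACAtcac
The marked letters begin 19 bases before the Klf2 start, 44 before the Ccr6 start and 10 before the Cxcr6 start. In vM21 the last 29 bases of the Klf2 window and 2 of the Cxcr6 window are annotated as exon, which takes in the marked letters of Klf2, and the other bases of the 3 windows lie before the annotated gene start. The KLF core is found in 52.0% of 32851 RefSeq windows of this length, the ROR core in 14.0% and the RUNX core in 14.0%. Of the other windows, that of Itgb7 holds the KLF core, that of Cx3cr1 the KLF and RUNX cores, and that of the second Ccr6 start none of the 3. A match describes the letters and is no sign of binding.

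UMIs (unique molecular identifiers, 1 per captured mRNA molecule) were counted. Cells, defined by 500 to 2500 genes and a mitochondrial share of UMIs up to 12%, numbered 4242 and 5961, at median depths of 4046.5 and 3604 UMIs, and 5 barcodes were shared by the libraries. They were classed by other genes than the 9. Levels are CPM, UMIs per 1000000 UMIs of the class. DETCs (3 or more Trdc UMIs, 3 or more CD3 UMIs and none of Trac, Cd4 or Cd8) numbered 3544 and 4945, αβ T cells (a Trac UMI and no Trdv4 UMI) 197 and 213, and innate lymphoid cells (ILCs, 3 or more UMIs of Il7r, Rora and Gata3 with at most 2 CD3 UMIs and no Trdv4 UMI) 82 and 139. The 8 DETC markers, CD3 genes and Ptprc among them, summed to 23733 and 23174 CPM in DETCs, 5292 and 6028 CPM in αβ T cells and 744 and 654 CPM in ILCs, and Tcrg-V5, a DETC receptor chain outside the gates, stood at 59.0 and 62.6 CPM in DETCs and 0 and 3.59 CPM in αβ T cells. Of the αβ T cells, 18 and 44 also held 3 or more Trdc UMIs. The 8 αβ T markers, Trac among them, summed to 3349 and 2912 CPM in αβ T cells. They summed to 2588 and 2229 CPM in DETCs and 1912 and 1786 CPM in ILCs. The 11 ILC markers, gate genes among them, summed to 2269 and 2519 CPM in ILCs. In αβ T cells they summed to 1364 and 1604 CPM and in DETCs to 894 and 858 CPM. ILCs held no Arg1, and Il13, a gene outside their gate that the study describes as DETC-derived, at 165 and 343 CPM. The ILC class was mixed: 7 keratinocyte markers summed to 517 and 4258 CPM and 7 myeloid markers to 1298 and 2000.1 CPM. In DETCs these sums were 33.8 and 45.8 CPM and 17.5 and 15.2 CPM. Of the ILC barcodes, 1 and 9 held 10 or more keratin UMIs.

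**Figure D1:**
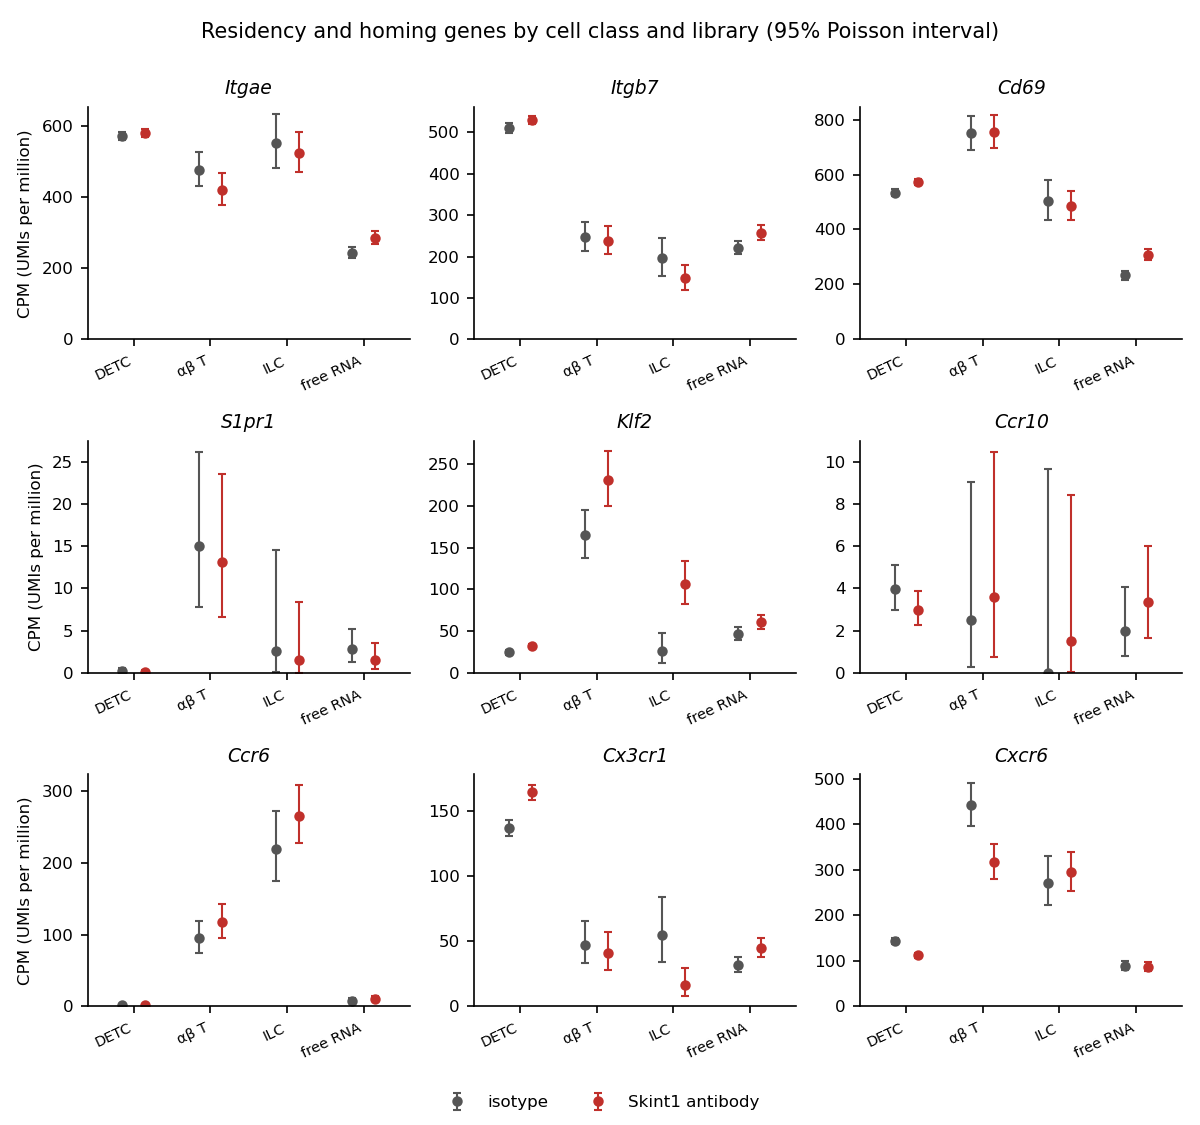
Level of each gene (vertical axis, CPM, from 0, its own scale per gene) in DETCs, αβ T cells, ILCs and free RNA (barcodes of 1 to 100 UMIs), for the isotype (grey) and Skint1 antibody (red) libraries, with 95% Poisson intervals that cover counting error only. Itgb7 and Cx3cr1 stand highest in DETCs, Klf2 in αβ T cells and Ccr6 in ILCs, and S1pr1, Klf2 and Ccr6 stand lower in DETCs than in free RNA. S1pr1 stands higher in αβ T cells than in DETCs, and ILCs had 1 UMI of it per library.

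DETCs held both chains of the CD103 integrin at high levels, and Itgb7 set them apart from the other lymphocytes more than Itgae did. Itgae stood at 572 (559.5 to 584) and 579 (569 to 590.4) CPM in DETCs (95% Poisson intervals in parentheses), 477 (430.4 to 527) and 421 (378 to 467) CPM in αβ T cells and 554 (482 to 633) and 525 (471 to 583) CPM in ILCs. Itgb7 stood at 509.7 (498 to 521) and 529 (518 to 539) CPM in DETCs, 247 (214 to 284) and 238 (206 to 273) CPM in αβ T cells and 196 (154 to 246) and 147 (119 to 179) CPM in ILCs. The Itgb7 intervals of DETCs lay above those of both other classes in each library, whereas the Itgae intervals of DETCs and ILCs overlapped.

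Class differences were tested with edgeR on UMIs summed per class and library (6 sums, library as a block, Benjamini-Hochberg adjustment over 7716 genes). At an adjusted p under 0.05, 15.9% of all genes were higher and 16.5% lower in αβ T cells than in DETCs, 17% were higher and 17.5% lower in ILCs than in DETCs, and 3.08% were higher and 4.96% lower in ILCs than in αβ T cells. Itgb7 was lower than in DETCs in αβ T cells (log2 ratio ± SE -0.97 ± 0.11, edgeR adjusted p = 6.24e-06) and in ILCs (-1.48 ± 0.12, edgeR adjusted p = 2.82e-07). Itgae passed in neither contrast (-0.23 ± 0.09, edgeR adjusted p = 0.0585, and 0.05 ± 0.09, edgeR adjusted p = 0.717). For αβ T cells it lay at the threshold: 6 other settings called it lower, at edgeR adjusted p of 0.0199 to 0.0458. Without the upper limit on genes, ILCs numbered 134 and 220 and Itgae was lower in them than in DETCs (-1.54, edgeR adjusted p = 1.16e-08). Under that setting most UMIs of the ILC sums came from the added large barcodes. Itgb7 was lower in ILCs than in αβ T cells (-0.51 ± 0.14, edgeR adjusted p = 0.0343), a call lost without the keratin and myeloid barcodes (-0.39, edgeR adjusted p = 0.0757), with the stricter αβ T gate of a Trbc UMI and fewer than 3 Trdc UMIs (-0.39, edgeR adjusted p = 0.169), at a limit of 5% mitochondrial UMIs (-0.82, edgeR adjusted p = 0.471) and under DESeq2 (-0.51, DESeq2 adjusted p = 0.140). Itgae did not pass between ILCs and αβ T cells (0.29 ± 0.10, edgeR adjusted p = 0.106), though it was higher in ILCs without the keratin and myeloid barcodes (0.40, edgeR adjusted p = 0.0120) and lower in them without the upper limit on genes (-1.32, edgeR adjusted p = 3.66e-07).

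After thinning each cell to 2000 UMIs, 66.7% (65.1 to 68.3) and 66.8% (65.4 to 68.1) of DETCs had an Itgae UMI and 63.3% (61.6 to 64.9) and 63.8% (62.5 to 65.2) an Itgb7 UMI (Clopper-Pearson 95% intervals). Before thinning these shares were 86.6% and 85.0% for Itgae and 83.8% and 82.3% for Itgb7. Both chains were found in 43.0% and 43.0% of thinned DETCs, where the product of the single shares is 42.2% and 42.6%, and neither chain in 13.0% and 12.4%. Thus 1 chain was about as frequent in DETCs with the other chain as in all DETCs. Both chains were found in 22.6% and 18.4% of αβ T cells and 24.7% and 14.7% of ILCs. As a measure of background, the 10 keratinocyte barcodes of the Skint1 antibody library (median 8054 UMIs) held no UMI of either chain, where 3 UMIs would make 37.7 CPM.

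The exit genes divided the classes the other way, with S1pr1 nearly absent from DETCs and both S1pr1 and Klf2 higher in αβ T cells than in DETCs. S1pr1 had 3 and 2 UMIs in all DETCs, or 0.205 and 0.107 CPM. In αβ T cells it had 12 and 11 UMIs, or 15.0 (7.74 to 26.2) and 13.2 (6.56 to 23.5) CPM, spread over 10 and 7 cells. The αβ T intervals lay above those of DETCs in both libraries, and free RNA, at 2.82 and 1.53 CPM, also lay above DETCs. The log2 ratios of αβ T cells over DETCs were 6.19 (4.30 to 8.66) and 6.94 (4.75 to 10.16). S1pr1 passed the filter on low counts only through αβ T cells, where it is high, so no test of it is given. ILCs had 1 S1pr1 UMI in each library, too few to place the class.

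Klf2 stood at 24.6 (22.1 to 27.2) and 32.4 (29.9 to 35.1) CPM in DETCs and 165 (138 to 195) and 231 (199 to 266) CPM in αβ T cells, a 6.71- and 7.12-fold difference without overlap (2.92 ± 0.20, edgeR adjusted p = 5.74e-08). A Klf2 UMI was found in 3.37% and 4.39% of thinned DETCs and 17.9% and 21.4% of αβ T cells. Free RNA held 46.9 and 60.7 CPM, above the DETC level, and the keratinocyte barcodes of the Skint1 antibody library held 377 CPM. How much of the DETC level is free RNA was not tested. Single DETCs held up to 12 and 15 Klf2 UMIs, and 73 and 118 cells held 2 or more.

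In ILCs the libraries disagreed on Klf2, with 10 and 70 UMIs or 26.1 (12.5 to 48.0) and 106 (82.7 to 134) CPM. In the Skint1 antibody library, 26 of the 70 UMIs came from the 9 barcodes with 10 or more keratin UMIs. Without keratin and myeloid barcodes, Klf2 was at 26.9 CPM (12.9 to 49.6) in 80 ILCs and 77.0 CPM (55.7 to 104) in 126. The fit put Klf2 higher in ILCs than in DETCs (1.45 ± 0.28, edgeR adjusted p = 8.71e-04) and lower than in αβ T cells (-1.46 ± 0.26, edgeR adjusted p = 0.00304), an order that turned without the upper limit on genes (0.67, edgeR adjusted p = 6.27e-04) and a call lost at a limit of 5% mitochondrial UMIs (-0.70, edgeR adjusted p = 0.598). The single library ratios to DETCs were 0.09 (-0.98 to 0.98) and 1.71 (1.33 to 2.07), so the fitted value stands for neither library.

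Cd69 RNA was abundant in each class and highest in αβ T cells. It stood at 534 (522 to 546) and 574 (563 to 585) CPM in DETCs, 749 (691 to 812) and 754 (697 to 816) CPM in αβ T cells and 504 (435 to 580.4) and 485 (434 to 541) CPM in ILCs. It was higher in αβ T cells than in DETCs (0.57 ± 0.08, edgeR adjusted p = 7.92e-05) and lower in ILCs than in αβ T cells (-0.59 ± 0.09, edgeR adjusted p = 0.00117). The difference of ILCs from DETCs did not pass (-0.02 ± 0.09, edgeR adjusted p = 0.892), except without the upper limit on genes (-1.35, edgeR adjusted p = 2.14e-07). A Cd69 UMI was found in 45.1% and 47.8% of thinned DETCs, and single DETCs held up to 41 and 33 UMIs.

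**Figure D2:**
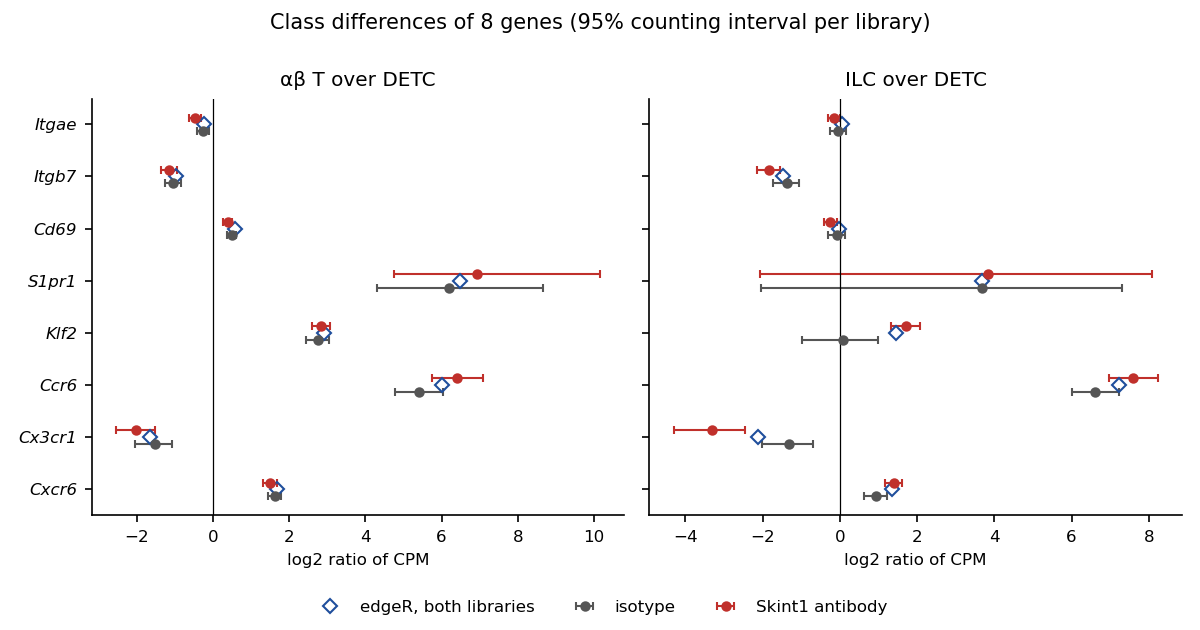
Log2 ratio of CPM (horizontal axis) of αβ T cells over DETCs (left) and ILCs over DETCs (right) for the 8 genes that passed the filter on low counts, with filled points for each library (95% counting intervals) and open diamonds for the edgeR estimate over both. In αβ T cells S1pr1, Klf2, Ccr6 and Cxcr6 lie right of 0 and Itgb7 and Cx3cr1 left of it, and the Klf2 points of ILCs stand apart at 0.09 and 1.71. S1pr1 and Ccr6 passed that filter only through classes other than DETCs.

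Among the chemokine receptors, DETCs held more Cx3cr1 and less Ccr6 and Cxcr6 than the other classes. Ccr6 stood at 2.25 (1.55 to 3.16) and 1.39 (0.908 to 2.04) CPM in DETCs, 94.9 (74.8 to 119) and 117 (95.1 to 143) CPM in αβ T cells and 219 (175 to 272) and 265 (228 to 308) CPM in ILCs. The classes kept that order in both libraries and their intervals did not overlap. The log2 ratios to DETCs were 5.40 (4.79 to 6.03) and 6.40 (5.76 to 7.08) for αβ T cells and 6.61 (6.01 to 7.23) and 7.58 (6.98 to 8.23) for ILCs. Ccr6 passed the filter on low counts only through these classes, so no test against DETCs is given. It was higher in ILCs than in αβ T cells (1.22 ± 0.19, edgeR adjusted p = 0.00122), a call lost at a limit of 5% mitochondrial UMIs (1.35, edgeR adjusted p = 0.142) and an order that turned without the upper limit on genes (-0.51, edgeR adjusted p = 0.0556). Free RNA held Ccr6 at 7.91 and 10.4 CPM, above DETCs, and how much of the DETC level is free RNA was not tested. A single DETC held up to 6 and 3 Ccr6 UMIs. DETCs without a Trdv4 UMI, 411 and 799 cells, gave 15 of the 33 and 12 of the 26 Ccr6 UMIs of the class, or 10.2 and 4.24 CPM against 1.36 and 0.882 in DETCs with one. The DETC gate also took in 26 and 39 of the IL-17 type γδ T cells described below. Those γδ T cells held 24 and 20 Ccr6 UMIs in all, and their part in the DETC level was not tested.

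Cx3cr1 stood at 137 (131 to 143) and 164 (158 to 170.0) CPM in DETCs, 47.5 (33.6 to 65.1) and 40.6 (28.2 to 56.8) CPM in αβ T cells and 54.8 (33.9 to 83.8) and 16.7 (8.33 to 29.8) CPM in ILCs. DETCs lay above both other classes without overlap. Cx3cr1 was lower than in DETCs in αβ T cells (-1.65 ± 0.24, edgeR adjusted p = 8.10e-05) and in ILCs (-2.12 ± 0.30, edgeR adjusted p = 5.59e-05), and the difference of ILCs from αβ T cells did not pass (-0.47 ± 0.40, edgeR adjusted p = 0.574). Free RNA held 31.6 and 44.9 CPM, near the αβ T cell level.

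Cxcr6 stood at 143 (137 to 149) and 112 (107 to 117) CPM in DETCs, 441 (396 to 489) and 317 (279.8 to 357) CPM in αβ T cells and 272 (222 to 329) and 294 (254 to 339) CPM in ILCs. It was higher than in DETCs in αβ T cells (1.69 ± 0.13, edgeR adjusted p = 1.52e-07) and in ILCs (1.34 ± 0.14, edgeR adjusted p = 3.61e-06), and the difference between ILCs and αβ T cells did not pass (-0.35 ± 0.15, edgeR adjusted p = 0.191). The call of ILCs over DETCs was lost at a limit of 5% mitochondrial UMIs, which left 16 and 20 ILCs (0.80, edgeR adjusted p = 0.0704), and turned without the upper limit on genes (-0.25, edgeR adjusted p = 0.116). A Cxcr6 UMI was found in 21.8% and 17.5% of thinned DETCs, 55.8% and 42.3% of αβ T cells and 41.6% and 45.6% of ILCs, and in none of the 10 keratinocyte barcodes of the Skint1 antibody library.

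Ccr10 was scarce in each class and did not pass the filter on low counts. DETCs held 58 and 56 UMIs, or 3.96 (3.0 to 5.11) and 2.99 (2.26 to 3.89) CPM, αβ T cells 2 and 3 UMIs and ILCs 0 and 1. For the isotype ILCs, 3 UMIs would make 7.83 CPM. Free RNA held 1.98 (0.795 to 4.07) and 3.36 (1.68 to 6.01) CPM, which overlapped DETCs, so a difference in Ccr10 between classes was not detectable at this depth.

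Of the 8 genes tested, 5 were called higher and 2 lower in αβ T cells than in DETCs (15.9% and 16.5% of all genes), 3 higher and 2 lower in ILCs than in DETCs (17% and 17.5%), and 1 higher and 3 lower in ILCs than in αβ T cells (3.08% and 4.96%). Their median log2 ratios were 1.13, 0.69 and -0.49, against -0.02, 0.01 and 0.00 over all genes. These counts and medians are descriptions only, since the genes called higher than in DETCs include S1pr1 and Ccr6, which had to differ to be tested. In isotype DETCs the levels ran from Itgae through Cd69, Itgb7, Cxcr6, Cx3cr1, Klf2, Ccr10 and Ccr6 to S1pr1. The intervals of the neighbours Cxcr6 and Cx3cr1, and of Ccr10 and Ccr6, overlapped. In Skint1 antibody DETCs Cx3cr1 stood above Cxcr6, and the intervals of Itgae and Cd69 overlapped. Each molecule gives 1 tag from its 3′ end, so CPM were not divided by gene length.

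Within αβ T cells, Itgae and Cd69 took opposite orders in CD8 and CD4 cells. CD8 cells (Cd8a or Cd8b1 and no Cd4, 25 and 17 cells) held Itgae at 615 (478 to 779.7) and 514 (359.9 to 711) CPM, and conventional CD4 cells (Cd4 and no Foxp3, 44 and 44 cells) at 239 (169 to 328) and 258 (189 to 343) CPM. The intervals of these subsets did not overlap in either library. Cells with Foxp3 (16 and 12 cells) held Itgae at 637 (453 to 871) and 872 (592 to 1237) CPM. Cd69 stood at 633 and 399.7 CPM in CD8 cells and 905 and 1148 CPM in conventional CD4 cells, log2 ratios of CD4 over CD8 of 0.51 (0.09 to 0.95) and 1.52 (0.95 to 2.15). The same ratios for Cxcr6 were -0.10 (-0.61 to 0.42) and -0.22 (-0.84 to 0.42), with intervals that held 0. S1pr1 had 1 to 4 UMIs in each subset and library. Each subset is 1 sum per library and was not tested. Most αβ T cells fell in none of these subsets.

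IL-17 type γδ T cells (Trdc without Trdv4, and 2 or more UMIs of 6 IL-17 type markers) numbered 34 and 45, of which 26 and 39 lay inside the DETC gate. They held Itgae at 505 and 562 CPM, with log2 ratios to Trdv4-bearing DETCs of -0.17 (-0.50 to 0.14) and -0.05 (-0.32 to 0.20), intervals that held 0. Ccr6 stood at 143 (91.4 to 212) and 92.2 (56.3 to 142) CPM, with ratios of 6.71 (5.77 to 7.68) and 6.71 (5.65 to 7.81). Cxcr6 was higher, by log2 ratios of 1.41 (1.02 to 1.77) and 1.05 (0.62 to 1.46), and Itgb7 (-0.41, -0.79 to -0.06 and -0.47, -0.80 to -0.16) and Cx3cr1 (-1.20, -2.27 to -0.32 and -0.64, -1.30 to -0.05) were lower. The median gene lay at -0.09 and -0.10, inside the isotype interval of Itgb7 and the Skint1 antibody interval of Cx3cr1. Of all genes at 50 CPM or more, 7.94% and 3.63% were at least 2-fold higher and 11.4% and 6.03% lower. Ccr6 and Cxcr6 were thus higher in both libraries, without a test. Ccr10 had 1 and 0 UMIs in these cells, too few to place. Klf2 had 3 and 28 UMIs in these cells, a log2 ratio of Skint1 antibody over isotype of 2.85 (1.16 to 5.22). The same ratio for Cxcr6 was -0.68 (-1.25 to -0.12), and the intervals of Itgae, Itgb7, Cd69, Ccr6 and Cx3cr1 held 0.

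**Figure D3:**
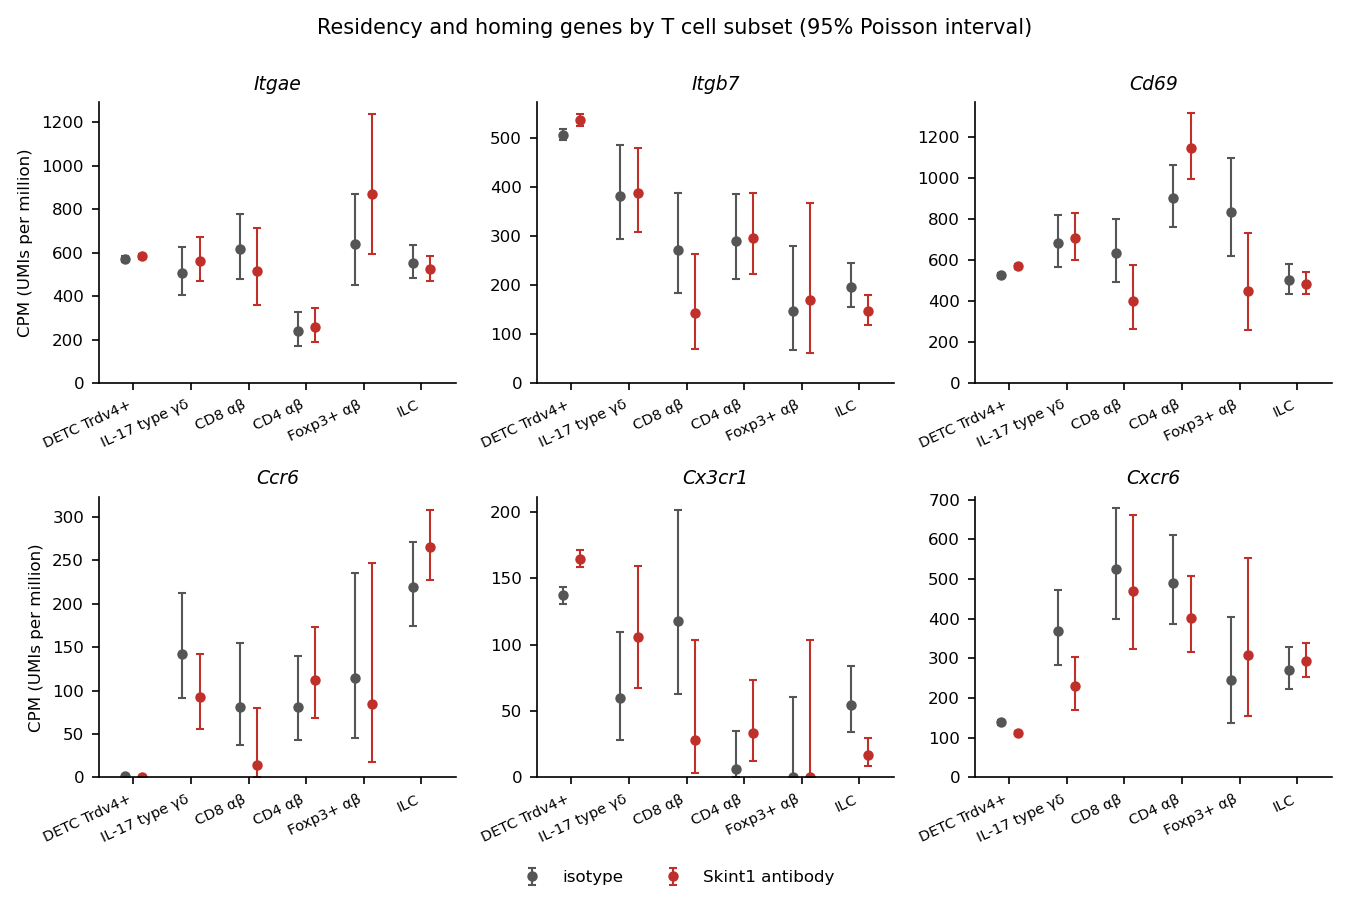
Level (vertical axis, CPM, from 0) of 6 genes in Trdv4-bearing DETCs, IL-17 type γδ T cells, CD8, CD4 and Foxp3-bearing αβ T cells and ILCs of the isotype (grey) and Skint1 antibody (red) libraries, with 95% Poisson intervals. CD4 cells have the lowest Itgae (239 and 258 CPM), and Trdv4-bearing DETCs the highest Itgb7 and the lowest Ccr6 (1.36 and 0.882 CPM).

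DETCs differed among themselves in Cd69 and Klf2 along with the immediate early genes, which respond within minutes to stimulation and to tissue digestion. Thinned DETCs were split per library into tertiles by the summed UMIs of Fos, Fosb, Jun, Junb, Egr1 and Ier2, at 7 and 18 UMIs in isotype and 6 and 18 in Skint1 antibody DETCs. From the lowest to the highest tertile, Cd69 stood at 325, 524 and 789 CPM in isotype DETCs and at 304, 591 and 880.4 CPM in Skint1 antibody DETCs. Klf2 stood at 12.8, 27.5 and 34.6 CPM and at 13.0, 37.6 and 49.7 CPM. Both genes were thus lowest in the lowest tertile of either library. Log2 ratios of the highest over the lowest tertile were 1.28 (1.20 to 1.37) and 1.54 (1.46 to 1.61) for Cd69 and 1.43 (1.01 to 1.87) and 1.94 (1.59 to 2.30) for Klf2, while S1pr1 had at most 2 UMIs in any tertile. Over all genes at 50 CPM or more the median ratio was -0.17 in each library, and 6.95% and 7.70% of them were at least 2-fold higher. Whether the digestion took part was not tested.

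Cxcr6 and Cx3cr1 went opposite ways over the same tertiles, at 0.54 (0.38 to 0.69) and 0.46 (0.30 to 0.61) for Cxcr6 and -0.68 (-0.84 to -0.51) and -0.61 (-0.75 to -0.48) for Cx3cr1. Itgae (-0.13, -0.21 to -0.05 and -0.15, -0.22 to -0.09) and Itgb7 (0.00, -0.08 to 0.08 and -0.16, -0.23 to -0.09) lay near the median gene. Tertiles cut a range and are not cell types: 570 and 872 DETCs lay within 2 UMIs of the lower cut. Dividing DETCs (95 and 89 cells with 2 or more UMIs of 5 cell cycle genes) held Itgae at 450.3 and 396 CPM against 576 and 584 CPM in the others.

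**Figure D4:**
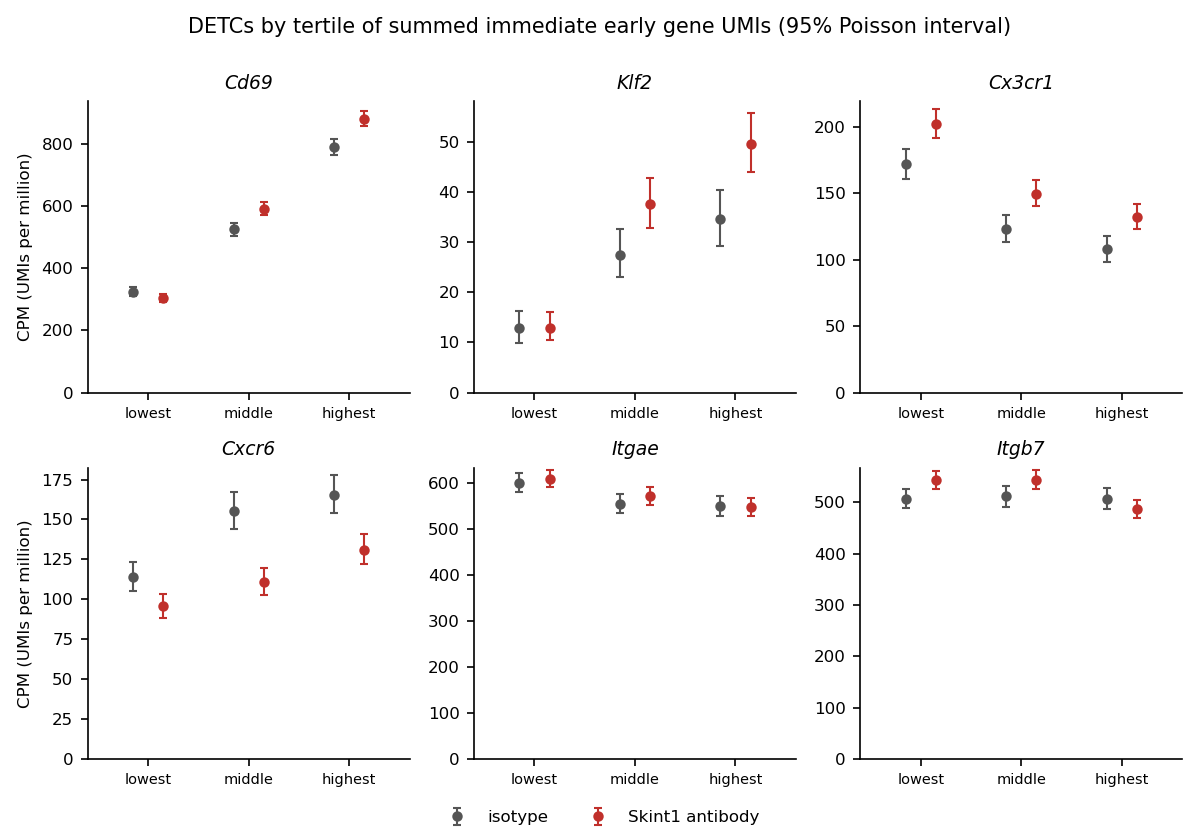
Level (vertical axis, CPM, from 0) of 6 genes in DETCs of the lowest, middle and highest tertile of summed immediate early gene UMIs, for the isotype (grey) and Skint1 antibody (red) libraries, with 95% Poisson intervals. Cd69 goes from 325 to 789 and from 304 to 880.4 CPM, Klf2 follows it, and Cx3cr1 is lowest in the highest tertile.

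The treatment comparison asks whether blocking Skint1 moves these genes, and with 1 library per arm it gives ratios with counting intervals and no test. In DETCs, 1.18% of 10798 genes were at least 1.5-fold higher and 1.47% at least 1.5-fold lower with Skint1 antibody. Of the 8 residency and homing genes with 50 or more UMIs, 0 were that much higher and 1, Ccr6, was that much lower, at a log2 ratio of -0.70 (-1.50 to 0.09). In DETCs with a Trdv4 UMI, Ccr6 was at -0.63 (-1.75 to 0.46). Cxcr6 was lower with Skint1 antibody at -0.35 (-0.44 to -0.26), and Klf2 (0.40, 0.21 to 0.59) and Cx3cr1 (0.26, 0.18 to 0.34) were higher. Itgae (0.02, -0.02 to 0.06), Itgb7 (0.05, 0.01 to 0.10) and Cd69 (0.11, 0.06 to 0.15) lay nearer to the median gene, at -0.03. In DETCs with 3 or more Xcl1 and Gzmc UMIs, however, Itgae was at -0.24 (-0.39 to -0.09) and Cd69 at 0.27 (0.13 to 0.41). Neither ratio can be told apart from a change in which cells enter that group. Cd69 was at -0.10 (-0.19 to 0.00) in the lowest immediate early tertile and 0.16 (0.10 to 0.22) in the highest. The intervals of S1pr1 (-0.94, -4.52 to 2.19) and Ccr10 (-0.40, -0.96 to 0.15) held 0, as did that of Ccr6.

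The lower Cxcr6 of Skint1 antibody DETCs was seen in each DETC state, from -0.26 (-0.42 to -0.09) in the lowest immediate early tertile to -0.62 (-0.95 to -0.29) in DETCs with 3 or more Xcl1 and Gzmc UMIs. In dividing DETCs alone the interval held 0 (-0.41, -1.01 to 0.18). At a limit of 5% mitochondrial UMIs, which left 1264 and 1504 DETCs, the ratio was -0.16 (-0.31 to -0.01). Klf2 was uneven, at 0.02 (-0.45 to 0.50) in the lowest and 0.52 (0.23 to 0.81) in the highest tertile, 1.20 (0.49 to 1.92) in DETCs with 3 or more Xcl1 and Gzmc UMIs and -0.76 (-2.35 to 0.70) in dividing DETCs. The study reports a loss of Xcl1 and Gzmc expression in DETCs after Skint1 antibody, so treatment can change which cells enter the Xcl1 and Gzmc group. That group held 436 of 3544 isotype DETCs and 227 of 4945 Skint1 antibody DETCs. For each gene, the ratio in the group cannot be told apart from a change in which cells qualify. Cx3cr1 was at 0.24 (0.11 to 0.36) to 0.30 (0.13 to 0.47) over the tertiles, but at -0.04 (-0.37 to 0.28) in DETCs with 3 or more Xcl1 and Gzmc UMIs and -0.03 (-0.57 to 0.51) in dividing DETCs. Free RNA Klf2 was also higher in the Skint1 antibody library (46.9 and 60.7 CPM), and its part in the DETC ratio was not tested.

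In αβ T cells, 3.16% of 3927 genes were at least 1.5-fold higher and 5.76% lower, and 0 of the 7 residency and homing genes with 50 or more UMIs were past either bound. Cxcr6 was lower at -0.48 (-0.71 to -0.24) and Klf2 higher at 0.49 (0.16 to 0.82). Within αβ T cells, Cxcr6 was at -0.16 (-0.82 to 0.49) in CD8, -0.28 (-0.76 to 0.20) in conventional CD4 and 0.34 (-0.93 to 1.56) in Foxp3-bearing cells, and Klf2 at -0.17 (-1.53 to 1.09), 0.19 (-0.47 to 0.86) and -1.22 (-4.49 to 1.11), all intervals that held 0. These subsets leave out most αβ T cells. Of the 132 and 193 Klf2 UMIs of the class, CD8 cells held 16 and 9 and conventional CD4 cells 36 and 46. Foxp3-bearing cells held 8 and 2, so most Klf2 UMIs lay outside the subsets. Cd69, at 0.01 (-0.15 to 0.17) in the whole class, was at -0.66 (-1.35 to -0.01), 0.34 (0.03 to 0.66) and -0.89 (-1.80 to -0.06) in the same subsets. Over all αβ T cells Klf2 was at 0.89 (0.53 to 1.26) when αβ T cells also needed a Trbc UMI and fewer than 3 Trdc UMIs, and at 0.23 (-0.26 to 0.72) without the 10 cells that held most of it. In ILCs, 6.56% and 8.25% of 2654 genes were past the bounds, with 1 of 6 residency and homing genes, Klf2, higher at 2.02 (1.06 to 3.14). It was at 1.52 (0.50 to 2.67) without keratin and myeloid barcodes and at 0.20 (0.00 to 0.39) without the upper limit on genes, so this ratio rests on which barcodes count as ILCs. Cx3cr1 in ILCs, with 21 and 11 UMIs, was at -1.72 (-2.92 to -0.60), and Cxcr6 at 0.12 (-0.24 to 0.47).

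**Figure D5:**
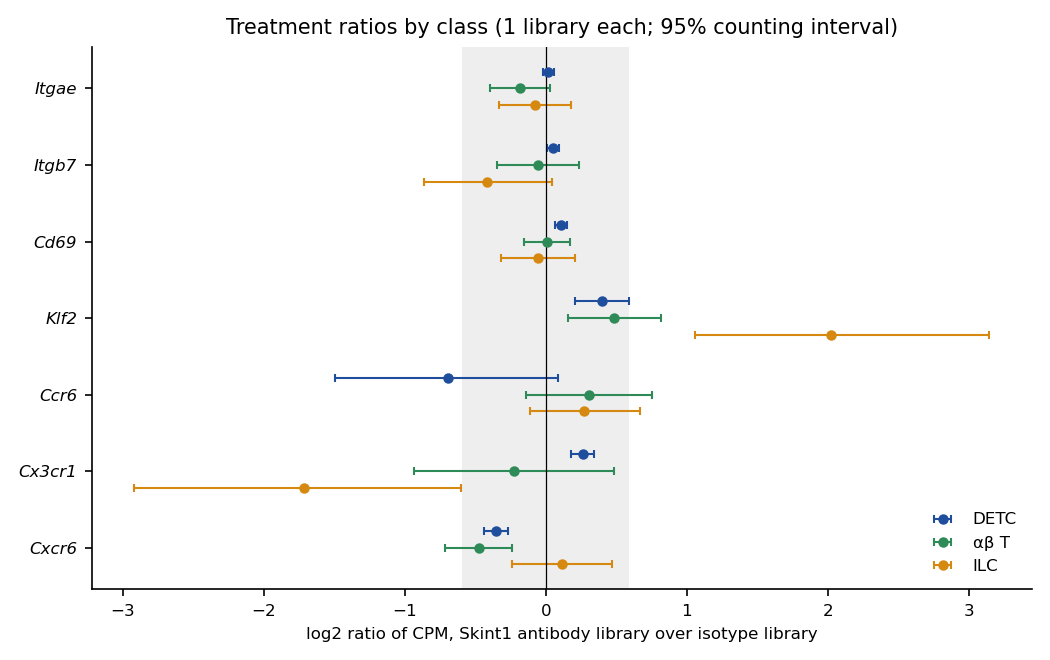
Log2 ratio of CPM, Skint1 antibody over isotype (horizontal axis), for 7 genes in DETCs (blue), αβ T cells (green) and ILCs (orange), with 95% counting intervals, 1 library per treatment and a grey band of 1.5-fold either way. Cxcr6 of DETCs (-0.35) and αβ T cells (-0.48) lies left of 0, and Klf2 (2.02) and Cx3cr1 (-1.72) of ILCs lie outside the band, as does Ccr6 of DETCs (-0.70).

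Partners of the 9 genes were read from 5 lists, whose counts stand against 15.9% higher and 16.5% lower of all genes for αβ T cells over DETCs, 17% and 17.5% for ILCs over DETCs and 3.08% and 4.96% for ILCs over αβ T cells. Of 14 integrin partners and adhesion genes 10 were tested, and 3 were higher (Cd44, Itgb2 and Icam1) and 1 lower in αβ T cells than in DETCs, with a median log2 ratio of 0.20. The lower one was Cdh1, which encodes E-cadherin, the CD103 ligand, at 227 and 228 CPM in DETCs and 69.9 and 46.6 CPM in αβ T cells (-1.85 ± 0.16, edgeR adjusted p = 6.46e-07). In ILCs 3 were higher (Itgb2, Cd44 and Epcam) and 1, Cdh1, lower than in DETCs, and 1, Epcam, was higher than in αβ T cells. Epcam had 13 and 79 UMIs in ILCs and stood at 201 CPM in the keratinocyte barcodes of the Skint1 antibody library, whose part in the call was not tested. It would not have passed the filter on low counts without ILCs, so both of its calls are descriptions. Itga1, the collagen receptor chain CD49a, had 1 UMI per library in DETCs.

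Of 11 tissue exit genes 7 were tested, and 3 were higher (Ccr7, S1pr4 and Klf6) and 1, Gna13, lower in αβ T cells than in DETCs, with a median of 0.18. Ccr7, the receptor for lymph node homing, stood at 15.9 and 15.9 CPM in DETCs and 109.9 and 72.9 CPM in αβ T cells (2.63 ± 0.20, edgeR adjusted p = 1.41e-07). S1pr4, a relative of S1pr1, stood at 5.32 and 4.49 CPM and 30.0 and 23.9 CPM, and passed the filter on low counts only through αβ T cells and ILCs, so its calls are descriptions. Free RNA held Ccr7 at 14.1 and 13.4 CPM and S1pr4 at 5.93 and 5.80 CPM, close to the DETC levels, and its part in these levels was not tested. Foxo1, which activates Klf2, did not pass (-0.26 ± 0.19, edgeR adjusted p = 0.347). In ILCs 2 were called higher (S1pr4 and Klf3) and 1, Gna13, lower than in DETCs, and 1, Ccr7, was lower than in αβ T cells. Klf3, on 5 and 20 UMIs in ILCs, stood at 13.1 and 30.3 CPM there and 12.3 and 10.6 CPM in DETCs, and would not have passed the filter without ILCs, so its call is a description. The keratinocyte barcodes of the Skint1 antibody library held 163 CPM of Klf3, whose part was not tested.

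Of 18 residency regulators 14 were tested, and 6 were higher and 6 lower in αβ T cells than in DETCs (median 0.12, where 15.9% of all genes were higher and 16.5% lower), 4 higher and 6 lower in ILCs than in DETCs (-0.09), and 1 higher and 5 lower in ILCs than in αβ T cells (-0.43). Runx3, which drives Itgae, stood at 376 and 389 CPM in DETCs, 126 and 136 CPM in αβ T cells and 47.0 and 81.9 CPM in ILCs, and was lower in αβ T cells (-1.42 ± 0.14, edgeR adjusted p = 1.58e-06) and ILCs (-2.35 ± 0.17, edgeR adjusted p = 7.37e-08) than in DETCs. Rgs1, Rgs2, Ahr, Smad3 and Smad7 were also lower in αβ T cells. Bhlhe40 was higher (2.41 ± 0.13, edgeR adjusted p = 6.09e-09), as were Fabp5, Tgfbr1, Ski and Nr4a1. Free RNA held Fabp5 at 206 and 206 CPM, above its level in αβ T cells (179 and 185 CPM) and DETCs (41.3 and 41.3 CPM), and its part in the call was not tested. The sixth, Prdm1, which encodes Blimp1, stood at 2.73 and 2.57 CPM in DETCs and 32.5 and 13.2 CPM in αβ T cells on 26 and 11 UMIs, and passed the filter on low counts only through αβ T cells. Zfp683, which encodes Hobit, had 0 UMIs in DETCs of both libraries.

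Of 13 other chemokine receptors 3 passed the filter. Cxcr4, the receptor for CXCL12, stood at 12.6 and 8.34 CPM in DETCs, 217 and 222 CPM in αβ T cells and 157 and 138 CPM in ILCs, with own-library log2 ratios of αβ T cells over DETCs of 4.11 (3.80 to 4.41) and 4.74 (4.42 to 5.05). Ccr4 stood at 4.30 and 2.89 CPM in DETCs and 18.7 and 15.5 CPM in αβ T cells, and ILCs had no Ccr4 UMI. Ccr2 stood at 95.8 and 108 CPM in DETCs, 152 and 76.5 CPM in αβ T cells and 10.4 and 6.07 CPM in ILCs. Cxcr4 and Ccr4 against DETCs, and Ccr2 against ILCs, passed the filter on low counts through the classes where they are high, so no such test is given. Ccr2 was well counted in both αβ T cells and DETCs, and their difference did not pass (0.27 ± 0.20, edgeR adjusted p = 0.356). Its direction differed between the libraries. Of 5 epidermal ligands 1 passed the filter, through ILCs only: Cxcl16, which CXCR6 binds, stood at 15.7 and 22.7 CPM in ILCs on 6 and 15 UMIs, 5.46 and 4.86 CPM in DETCs and 0 and 2.39 CPM in αβ T cells on 0 and 2 UMIs, and is given as a value only. Ccl27a, the ligand of CCR10, stood at 6.62 and 6.09 CPM in DETCs and 314 CPM in the keratinocyte barcodes of the Skint1 antibody library. With Skint1 antibody, 0 of the 10 integrin partners, 14 regulators and 2 ligands with 50 or more UMIs in DETCs were past 1.5-fold, where 1.18% of all genes were that much higher and 1.47% lower. Of 6 other chemokine receptors 3 were past it: Ccr8 at 0.59 (-0.10 to 1.32) and Cxcr2 at 0.72 (-0.08 to 1.57), with intervals that held 0, and Cxcr4 at -0.60 (-0.91 to -0.28).

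The genes most alike in pattern were found by Pearson's r of log2(CPM + 10) over 18 points, 9 nested classes and subsets in each library that share cells, among 9189 genes with 200 or more UMIs. Ccr6 was most like Hlf (0.975) and Il7r (0.970), the latter a gene of the ILC gate. Itgb7 was most like Btg2 (0.958) and Samd11 (0.954), Cx3cr1 like Lss (0.959) and Paxx (0.949) and Cxcr6 like Tesc (0.949) and Ostf1 (0.939). Itgae was most like Rnf170 (0.904) and Hist1h3d (0.885), Cd69 like Cdca8 (0.946) and Pgam1 (0.888) and Klf2 like Actg1 (0.882) and Slc2a3 (0.839). S1pr1, on 46 UMIs in all, was most like AW112010 (0.951) and Psmb8 (0.947), and Ccr10, on 129, like A430033K04Rik (0.942) and Elavl1 (0.890). Subsets of few cells weigh as much here as large classes, and these values are descriptions.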

How the data were processed

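Single-cell RNA of sorted epidermal cells was deposited as raw UMI counts per gene and barcode, 1 matrix per library, which the authors made with Cell Ranger 3.0.2 on GRCm38 (mm10) from 10x 3′ libraries. The deposited counts are not normalized, cover barcodes without cells, and sum to 27272211 and 32450957 UMIs. The 9 genes and the lists were chosen with earlier results of these data known.

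Limits of 500 to 2500 genes and 12% mitochondrial UMIs defined cells, which gates on other genes then classed. Barcodes in both the αβ T and ILC gates (9 and 14) stayed in both. Scrublet (Scanpy 1.11.5) marked 0 and 1 barcodes at its own threshold and had not worked. Doublets stayed in, and an alternative removed the highest scores at 0.8% per 1000 barcodes (192 and 348 marked). Intervals are 95%: Poisson for levels, Clopper-Pearson for shares after thinning to 2000 UMIs (134 and 202 DETCs were shallower) and conditional binomial for ratios. They cover counting error only.

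Class contrasts used edgeR 4.0.16 (R 4.3.3, TMM, filterByExpr, quasi-likelihood) on 6 sums with library as a block, which leaves 2 residual degrees of freedom beside 11.7 prior ones. The fit takes a class difference as equal in both treatments. The p-values rest only on how far class differences vary between these libraries, moderated by the spread of other genes. Differences in level between the libraries are taken out by the block and are not measured. The block pairs classes of the same library. On simulated data for αβ T cells over DETCs (7716 genes), 56% of 100 genes changed by a log2 of 1 and 92% of 100 changed by 2 were found, and 0.0931% of 7516 unchanged genes were called. The study's test over cells was not repeated, since cells are not replicates. Named genes were the 9, list genes that are their partners, ligands or regulators or were called, and the 2 most alike each. One gene that the rule would name is not reported here. Alternatives changed cell limits, gates, doublets, scaling, thinning, the low count filter, the block and the tool (DESeq2 1.42.0), and 3 gates were added after seeing the data.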

Additional observations from a re-analysis of the deposited data

Results flagged for a closer look

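The treatment ratio of Cx3cr1 had opposite signs in 2 classes, at 0.26 (0.18 to 0.34) in DETCs and -1.72 (-2.92 to -0.60) in ILCs. The difference was not tested, with 1 library per treatment and 21 and 11 UMIs in ILCs. In the barcodes of 1 to 100 UMIs, which no class comparison used, 3 of the 9 genes stood above their DETC level in each library. These were S1pr1 at 2.82 and 1.53 CPM on 10 and 5 UMIs, Klf2 at 46.9 and 60.7 CPM and Ccr6 at 7.91 and 10.4 CPM.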

How the results depend on the processing

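Of 282 class ratios of single genes under other settings, 257 kept their call, 13 gained it, 7 lost it and 5 reversed. Over all settings 286 of 301 treatment ratios stayed inside the reported interval and 15 left it. Most that left it did so at the limit of 5% mitochondrial UMIs, where 10 moved and only 12 stayed. All 5 reversals came without the upper limit on genes, which raised ILCs to 134 and 220 barcodes. Their summed UMIs rose from 382921 and 659467 to 1537988 and 2578050. Most of that sum thus came from the added large barcodes, whose identity was not tested. The reversed ratios were Itgae -1.54 and Cxcr6 -0.25 for ILCs over DETCs, and Itgae -1.32, Klf2 0.67 and Ccr6 -0.51 for ILCs over αβ T cells. Under that setting 3645 genes were called higher and 2674 lower for ILCs over DETCs (1312 and 1353 as reported), 2576 and 1962 for ILCs over αβ T cells (238 and 383), and 292 and 392 were past 1.5-fold with Skint1 antibody in ILCs (174 and 219). At 5% mitochondrial UMIs, which left 16 and 20 ILCs and 94 and 79 αβ T cells, calls were 563 higher and 606 lower for αβ T cells over DETCs (1227 and 1275), 454 and 425 for ILCs over DETCs and 75 and 77 for ILCs over αβ T cells. Genes past 1.5-fold were then 82 and 123 in αβ T cells (124 and 226) and 82 and 69 in ILCs. Itgb7, Klf2 and Ccr6 lost their call for ILCs over αβ T cells there, at -0.82, -0.70 and 1.35 (adjusted p = 0.471, 0.598 and 0.142), and Cxcr6 for ILCs over DETCs. DESeq2 called 712 lower for αβ T cells over DETCs, and 151 higher and 236 lower for ILCs over αβ T cells, where the stricter αβ T gate called 244 lower. For ILCs with Skint1 antibody, 107 genes were past 1.5-fold higher without keratin and myeloid barcodes, and 122 lower with TMM scaling. The cause was not tested. Shares of cells with a UMI moved in 77 of 108 comparisons under the other thinning settings, which set them. The fit with no replicate block changed no call of the 9 genes, and its counts of genes called stayed within 1.5 times. Leaving out a library leaves no residual degrees of freedom, so single library ratios stand in for it. Depth limits S1pr1 and Ccr10 most.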
